A study of Mus musculus with 9 samples.

Results

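The 10 genes described here belong to the system that activates hepatocyte growth factor in epithelium and to the trypsin-like serine proteases anchored in the cell membrane. They are Hgfac, Hgf, Met, Spint1, Spint2, St14, Prss8, Tmprss2, Tmprss4 and Tmprss11d, matched by symbol among the 18094 genes of the count table. Hgfac and Tmprss11d were chosen by their values, because they were the 2 genes of 15186 that passed the test in tamoxifen+primidone against tamoxifen uteri. The other 8 were added for what they are known to do. All 10 passed the filter on low counts.

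RNA was sequenced from the uterus of 9 female mice aged 13 weeks, 3 in each group. Tamoxifen+primidone mice received tamoxifen at 1 mg/kg on days 1 to 5 of life, by mouth in an oily milk mixture, and daily intraperitoneal primidone (2 mg/kg) for 3 weeks from week 10. Tamoxifen mice received the same neonatal tamoxifen and vehicle injections from week 10. Control mice received the neonatal solvent and the vehicle injections, a treatment that the labels write as vesicle. Tamoxifen is a selective estrogen receptor modulator, and giving it to newborn mice is a model of adenomyosis, the growth of endometrium into the uterine muscle. Primidone is an anticonvulsant that also blocks the cation channel TRPM3. Estrous stage was not given in the sources used here. Per group the labels give 3 mice and no sign of pooling, but they do not state that each library is 1 mouse, so p-values measure the spread between these libraries.

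Hepatocyte growth factor is secreted by stroma as an inactive single chain and signals only after a serine protease cuts it. The activated factor binds MET, a receptor tyrosine kinase on epithelial cells. HGF activator, the product of Hgfac, is a liver and epithelial protease that makes this cut, and the membrane proteases matriptase (St14) and hepsin can make it too. HAI-1 and HAI-2, encoded by Spint1 and Spint2, are membrane Kunitz inhibitors of these enzymes, and prostasin (Prss8) is a partner of matriptase in epithelium. Tmprss2, Tmprss4 and Tmprss11d encode further membrane-anchored serine proteases of epithelial surfaces.

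The promoters of 3 members are printed because these members carry the largest changes (Hgfac and Tmprss11d) or the clearest one among the members added for function (Spint1). Promoters of 7 of the 10 members were in RefSeq for the build GRCm38.p6, 8 promoters in all, and St14, Prss8 and Tmprss4 were not among them. The windows run from 250 bases before to 50 bases after the annotated start, read 5′ to 3′ along the gene. Capitals mark motif matches. In Hgfac, on chromosome 5 at chr5:35041259-35041558 (plus strand), they mark 2 copies of the estrogen response element half-site (GGTCA or its complement TGACC) and 1 steroid receptor half-site (AGAACA). In Tmprss11d, on the minus strand of the same chromosome at chr5:86373338-86373637, they mark an AP-1 site (TGANTCA). In Spint1, at chr2:119237110-119237409 (plus strand), they mark an ETS site (CCGGAAG) and an AP-1 site.
Hgfac: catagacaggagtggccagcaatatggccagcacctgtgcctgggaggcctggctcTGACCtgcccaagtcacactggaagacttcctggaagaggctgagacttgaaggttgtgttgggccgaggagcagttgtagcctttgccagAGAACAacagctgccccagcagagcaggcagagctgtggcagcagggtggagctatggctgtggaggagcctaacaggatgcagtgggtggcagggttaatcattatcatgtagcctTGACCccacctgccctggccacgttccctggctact
Tmprss11d: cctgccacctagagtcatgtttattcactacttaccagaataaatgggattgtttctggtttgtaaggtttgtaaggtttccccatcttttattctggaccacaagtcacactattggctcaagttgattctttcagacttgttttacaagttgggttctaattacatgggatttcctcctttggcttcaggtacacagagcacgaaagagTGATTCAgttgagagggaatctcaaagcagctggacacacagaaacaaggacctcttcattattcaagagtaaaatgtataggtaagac
Spint1: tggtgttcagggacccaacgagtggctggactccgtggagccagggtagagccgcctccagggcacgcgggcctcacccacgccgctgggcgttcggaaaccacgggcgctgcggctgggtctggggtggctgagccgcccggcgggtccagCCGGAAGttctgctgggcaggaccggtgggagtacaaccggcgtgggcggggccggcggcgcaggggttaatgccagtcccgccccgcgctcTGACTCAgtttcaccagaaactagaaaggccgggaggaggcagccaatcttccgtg

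Counting the start as 0, the Hgfac half-sites begin at −194 and 14, the AGAACA match at −103, the Tmprss11d AP-1 site at −39, and the Spint1 ETS and AP-1 sites at −98 and −6. The search read both strands, and none of these matches overlaps another. Of 32851 promoters of the same length, 40.5% hold GGTCA, 19% hold AGAACA, 7.81% hold TGANTCA and 8.86% hold CCGGAAG. A half-site was also found in a promoter of Hgf, Met and Spint2, and an AP-1 site in that of Met. The E-box CACGTG (7.15% of promoters) was found in Met alone among the 8. TATAAA (13.6%) and the full estrogen response element palindrome (0.07%) matched none of the 8. A match of this kind is a description of the letters, and binding was not measured.

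Hgfac showed the largest difference of the 10 members in tamoxifen+primidone against control uteri, where it was lower. Tmprss11d was the only one whose levels in tamoxifen uteri lay above those of both other groups. Both genes were chosen by their values in libraries that these comparisons share, so their place among the members is a description. Levels within a gene are CPM, counts scaled to a common TMM-adjusted library size. Hgfac had 35.9, 36.1 and 38.3 CPM in tamoxifen+primidone uteri, against 118, 86.1 and 125 CPM in tamoxifen uteri and 99.6, 88.6 and 119 CPM in control uteri. The 3 tamoxifen+primidone libraries lay below all 6 others and close to each other, while tamoxifen and control libraries overlapped. The log2 fold change of Hgfac was −1.57 ± 0.15 (SE) in tamoxifen+primidone against tamoxifen uteri, −1.48 ± 0.15 against control uteri and 0.10 ± 0.14 in tamoxifen against control uteri. In folds, the Hgfac level was 2.98-fold lower with primidone than with tamoxifen alone and 2.79-fold lower than in controls.

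Tmprss11d, also called human airway trypsin-like protease in the species where it was first described, had 9.98, 16.2 and 10.1 CPM in tamoxifen+primidone uteri. Its levels were 39.3, 37.7 and 35.4 CPM in tamoxifen uteri and 20.4, 16.7 and 22.4 CPM in control uteri. No 2 groups overlapped, and tamoxifen+primidone replicate 2 lay nearest to the controls. The log2 fold change of Tmprss11d was −1.63 ± 0.19 in tamoxifen+primidone against tamoxifen uteri, −0.71 ± 0.19 in tamoxifen+primidone against control uteri and 0.92 ± 0.19 in tamoxifen against control uteri. The level in tamoxifen uteri was 1.89-fold that in controls, whereas Hgfac in tamoxifen uteri was 1.07-fold its control level.

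No p is given for these genes beyond those that chose them, since the comparisons share the libraries that chose them. Just inside the threshold of 0.05 stood Tmprss11d, with an adjusted p of 0.0418 by edgeR's quasi-likelihood test, and well inside it Hgfac with 0.0123. Just outside stood Ces2b, Ccnd2, Rasd1 and Papln, each at 0.0518. The 2 genes are 0.0132% of those tested. Without tamoxifen replicate 1, or without control replicate 1, neither gene passed, and without control replicate 3 only Hgfac did.

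**Figure D1:**
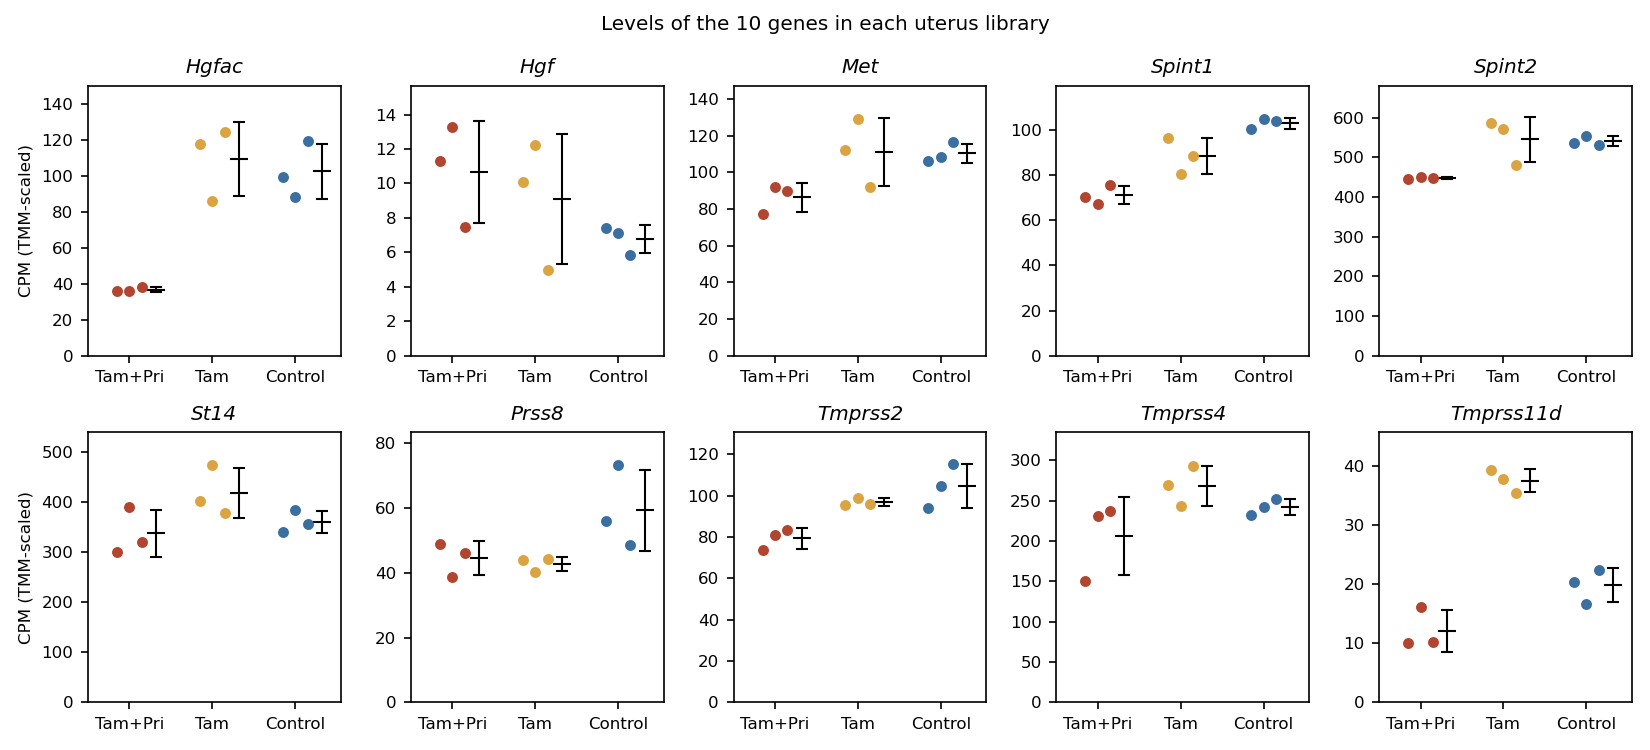
Levels of the 10 members in CPM on TMM-scaled library sizes (vertical axes, linear, from 0), with a point per library and the mean ± SD of the 3 libraries of each group beside them, tamoxifen+primidone (Tam+Pri) at the left, then tamoxifen (Tam) and control. Hgfac lies between 35.9 and 38.3 CPM in tamoxifen+primidone uteri and at 86.1 CPM or above in the other groups, and Tmprss11d is highest in the 3 tamoxifen uteri.

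Spint1, which encodes the matriptase and HGF activator inhibitor HAI-1, fell in tamoxifen+primidone against control uteri. It had 70.5, 67.3 and 75.5 CPM in tamoxifen+primidone uteri, 96.5, 80.6 and 88.5 CPM in tamoxifen uteri and 100.1, 105 and 104 CPM in control uteri. The groups did not overlap, with tamoxifen uteri in between. The log2 fold change was −0.53 ± 0.08 in tamoxifen+primidone against control uteri, a 1.45-fold fall (edgeR adjusted p = 0.0103), and Spint1 passed whichever of the 9 libraries was left out. Against controls it was −0.22 ± 0.08 in tamoxifen uteri (edgeR adjusted p = 0.214). In tamoxifen+primidone against tamoxifen uteri it was −0.32 ± 0.08.

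The second inhibitor, Spint2 (HAI-2), had the highest level of the 10 genes. Spint2 had 447, 451 and 447 CPM in tamoxifen+primidone uteri, 586, 570.4 and 479.7 CPM in tamoxifen uteri and 536, 555 and 530.1 CPM in control uteri. All 3 tamoxifen+primidone libraries lay below the 6 others, and tamoxifen and control libraries overlapped. The difference in tamoxifen+primidone against control uteri was −0.27 ± 0.09 on the log2 scale, which did not pass (edgeR adjusted p = 0.109), although DESeq2 called it with an adjusted p of 0.0419. For tamoxifen against control it was 0.01 ± 0.09 (edgeR adjusted p = 0.959).

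Tmprss2, which encodes a membrane protease known for its regulation by androgen in prostate, also fell in tamoxifen+primidone against control uteri. It had 73.7, 81.2 and 83.5 CPM in tamoxifen+primidone uteri, 95.5, 99 and 96 CPM in tamoxifen uteri and 93.9, 105 and 115 CPM in control uteri. The tamoxifen+primidone libraries were the 3 lowest of the 9, and tamoxifen and control libraries overlapped. The log2 fold change was −0.40 ± 0.09 in tamoxifen+primidone against control uteri (edgeR adjusted p = 0.0347) and −0.11 ± 0.09 in tamoxifen against control uteri (edgeR adjusted p = 0.55). The call for Tmprss2 was lost when any 1 of 6 libraries was left out (tamoxifen+primidone 1 and 2, tamoxifen 1, and each control), where its adjusted p reached 0.113. It was also lost when the 6 libraries of the comparison were fitted alone, at 0.0636.

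Matriptase itself, St14, overlapped between all groups. Its levels were 299.9, 391 and 320.1 CPM in tamoxifen+primidone uteri, 402, 474 and 378 CPM in tamoxifen uteri and 340.1, 383 and 356 CPM in control uteri. The St14 log2 fold change was −0.09 ± 0.12 in tamoxifen+primidone against control uteri (edgeR adjusted p = 0.685) and 0.22 ± 0.12 in tamoxifen against control uteri (edgeR adjusted p = 0.385). Prss8, the prostasin gene, had 48.8, 38.7 and 45.9 CPM in tamoxifen+primidone uteri, 43.8, 40.2 and 44.2 CPM in tamoxifen uteri and 56.1, 73.1 and 48.6 CPM in control uteri. The 3 controls lay above every tamoxifen library. Neither comparison of Prss8 with controls passed, at −0.41 ± 0.14 with tamoxifen+primidone (edgeR adjusted p = 0.119) and −0.47 ± 0.14 with tamoxifen (edgeR adjusted p = 0.129).

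Tmprss4, a membrane protease of epithelial and tumour cells, was lowest in tamoxifen+primidone replicate 1. It had 151, 231 and 237 CPM in tamoxifen+primidone uteri, 269.8, 243 and 293 CPM in tamoxifen uteri and 233, 242 and 252 CPM in control uteri. Its log2 difference in tamoxifen+primidone against control uteri was −0.23 ± 0.15 (edgeR adjusted p = 0.397), and −0.050 without that library. Tmprss4 in tamoxifen against control uteri differed by 0.15 ± 0.15 (edgeR adjusted p = 0.661). Reads of Tmprss4 and Prss8 may be shared with genes that overlap them on the opposite strand (BC049352 and Kat8), since the strand setting of the counting was not stated in those sources.

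Neither the growth factor nor its receptor passed in a comparison with controls. Hgf had 11.3, 13.3 and 7.47 CPM in tamoxifen+primidone uteri, 10.1, 12.2 and 4.96 CPM in tamoxifen uteri and 7.4, 7.15 and 5.88 CPM in control uteri. Replicate 3 was the lowest of each group. The Hgf log2 fold change was 0.65 ± 0.32 in tamoxifen+primidone against control uteri (edgeR adjusted p = 0.253) and 0.42 ± 0.32 in tamoxifen against control uteri (edgeR adjusted p = 0.533). Met had 77.4, 91.9 and 89.8 CPM in tamoxifen+primidone uteri, 112, 129 and 92.1 CPM in tamoxifen uteri and 106, 108 and 116 CPM in control uteri. The tamoxifen+primidone libraries were the 3 lowest of the 9 for Met, the nearest other being tamoxifen replicate 3. Its log2 fold change was −0.35 ± 0.12 in tamoxifen+primidone against control uteri (edgeR adjusted p = 0.113) and 0.01 ± 0.12 in tamoxifen against control uteri (edgeR adjusted p = 0.977).

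Of the 8 members added for function, 2 fell and 0 rose in tamoxifen+primidone against control uteri (Spint1 and Tmprss2). Among all genes tested, 5.35% passed in that comparison, 3.21% lower and 2.14% higher. A further 3 of the 8 had an unadjusted p under 0.05. The share of all genes under that unadjusted cut was not computed, so such counts here and below have no baseline. Of the 8 differences 7 were negative, against 48.3% over all genes, and their median was −0.31 against 0.01 over all genes. Uterine epithelium markers were similar in that comparison, with 16 of 20 negative and a median of −0.30. In tamoxifen against control uteri 0 of the 8 passed by edgeR and 0 by DESeq2, 2 had an unadjusted p under 0.05, and the median was 0.01. Among all genes 1.53% passed there, 0.961% lower and 0.573% higher. In tamoxifen+primidone against tamoxifen uteri 6 of the 8 were negative, against 47.2% over all genes, with a median of −0.30 against 0.02 over all genes. Of the epithelium markers 17 of 20 were negative there, with a median of −0.35. The comparisons share their libraries, so these counts are not separate evidence.

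The ranges of the 3 libraries of each group did not overlap for 7 of the 10 members in tamoxifen+primidone against control uteri, 6 lower and Hgf higher. The same held for 29.1% of all genes. In tamoxifen+primidone against tamoxifen uteri 7 of the 10 did not overlap, all lower, against 16.6% of all genes, and in tamoxifen against control uteri 3 of the 10 did not, against 26.1%. Hgfac and Tmprss11d are among these counts, and they were selected on their values.

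**Figure D2:**
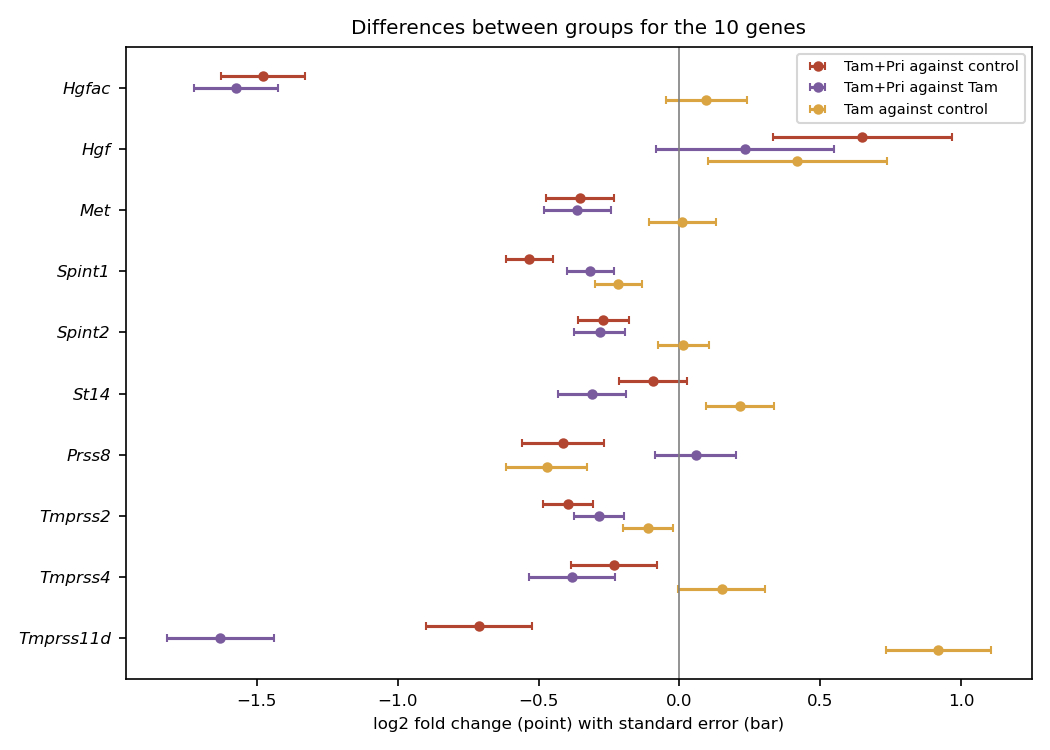
Log2 fold changes of the 10 members (points) with standard errors (bars) from the edgeR fit, for each of the 3 comparisons of groups. Hgfac and Tmprss11d lie at −1.57 and −1.63 for tamoxifen+primidone against tamoxifen, and the other members lie between −0.53 and 0.65 in all 3 comparisons.

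Between genes, levels can be compared only per length, and the deposited FPKM values serve for that. By the mean of the 9 libraries the order was Spint2 (231 FPKM), Tmprss4 (103), St14 (83.4), Hgfac (37.5), Spint1 (36.8), Tmprss2 (28.9), Prss8 (27.8), Met (14.8), Tmprss11d (11.2) and Hgf (3.11 FPKM). Spint2 was above Tmprss4, St14 above Hgfac, Spint1 above Tmprss2, Prss8 above Met and Tmprss11d above Hgf in 9 of 9 libraries. Neighbours in the order were not separated for Tmprss4 and St14, with Tmprss4 higher in 7 of 9 libraries, for Met and Tmprss11d, with Met higher in 7 of 9, and for Hgfac and Spint1 or Tmprss2 and Prss8, with the first higher in 5 of 9. Hgfac had 17.1 to 17.8 FPKM in tamoxifen+primidone uteri, below Spint1 in all 3, against 39.2 to 55.9 FPKM in tamoxifen and 40.3 to 52.8 FPKM in control uteri.

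The balance of inhibitor to protease transcripts can be set out from the same FPKM values. The ratio of Spint1 to St14, an inhibitor and its main known target, was 0.441, 0.324 and 0.443 in tamoxifen+primidone uteri, 0.451, 0.319 and 0.44 in tamoxifen uteri, and 0.553, 0.513 and 0.548 in control uteri. All 6 libraries with tamoxifen lay below the 3 controls, and replicate 2 was lowest in each group. The mean log2 ratio was −1.33 ± 0.26 in tamoxifen+primidone uteri, −1.33 ± 0.28 in tamoxifen uteri and −0.90 ± 0.06 in control uteri (SD, n = 3 each). It differed by −0.43 from controls in both comparisons, each with a two-sided exact permutation p of 0.1, the smallest that 3 libraries against 3 can give. The summed FPKM of Spint1 and Spint2 over that of the 5 proteases St14, Prss8, Tmprss2, Tmprss4 and Tmprss11d averaged 1.07 ± 0.14, 1.00 ± 0.10 and 1.10 ± 0.04 in tamoxifen+primidone, tamoxifen and control uteri (SD, n = 3 each). These differences lie within the spread of the treated groups, and no test was made since Tmprss11d was selected on its values.

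**Figure D3:**
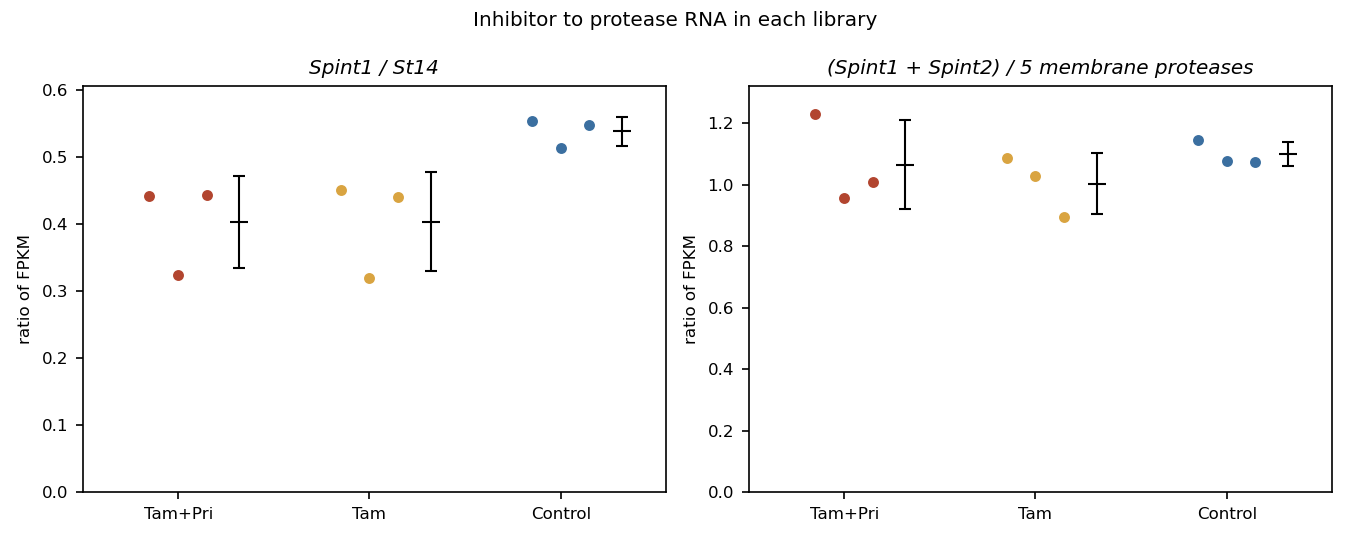
Ratios of FPKM in each library (points; vertical axes linear, from 0), with the mean ± SD of the 3 libraries of each group, tamoxifen+primidone at the left, then tamoxifen and control: Spint1 to St14, and Spint1 plus Spint2 to the 5 membrane proteases. The Spint1 to St14 ratio is between 0.319 and 0.451 in the 6 libraries with tamoxifen and between 0.513 and 0.553 in controls, and the second ratio is near 1 in each group.

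Of the other membrane-anchored serine proteases, 3 fell and 0 rose in tamoxifen+primidone against control uteri. The list had 27 such genes, of which 19 were in the count table and 10 had enough counts to test. Among all genes tested, 3.21% passed lower in that comparison. Tmprss11e, a relative of Tmprss11d in the same gene cluster, fell in tamoxifen+primidone against control uteri, with 9.8, 8.31 and 6.64 CPM in tamoxifen+primidone, 10.9, 12.5 and 13.4 CPM in tamoxifen and 16.7, 22.8 and 16.6 CPM in control uteri (log2 fold change −1.18 ± 0.18, edgeR adjusted p = 0.0101). The groups of Tmprss11e did not overlap. Tmprss6, whose product restrains hepcidin in liver, fell by 1.80 ± 0.32 on the log2 scale (edgeR adjusted p = 0.0222). Its CPM were 31.9, 43.8 and 52.6 in tamoxifen+primidone, 79.1, 33.9 and 67.7 in tamoxifen and 146, 119.6 and 182 in control uteri. The controls stood apart for Tmprss6, and the other groups overlapped.

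Tmprss11g, another gene of that cluster, fell by 1.25 ± 0.29 (edgeR adjusted p = 0.0468), a call lost without 8 of the 9 libraries, all but tamoxifen+primidone replicate 3. The call for Tmprss6 was lost without tamoxifen+primidone 1 or 2 or control 1 or 3, with adjusted p up to 0.0771, and that for Tmprss11e held whichever library was left out. The median of the 10 was −0.72 in tamoxifen+primidone against control uteri (0.01 over all genes), −0.01 in tamoxifen against control uteri and −0.54 in tamoxifen+primidone against tamoxifen uteri (0.02 over all genes), where all 10 were negative. In tamoxifen against control uteri 0 passed by edgeR, 3 had an unadjusted p under 0.05 and DESeq2 called 3. For tamoxifen+primidone against tamoxifen 0 passed by edgeR, 5 had an unadjusted p under 0.05 and DESeq2 called 1. Hpn, the hepsin gene, differed by −0.56 ± 0.19 in tamoxifen+primidone against control uteri (edgeR adjusted p = 0.113). The wider lists, like the 10 members, were drawn up with earlier results of these libraries known.

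**Figure D4:**
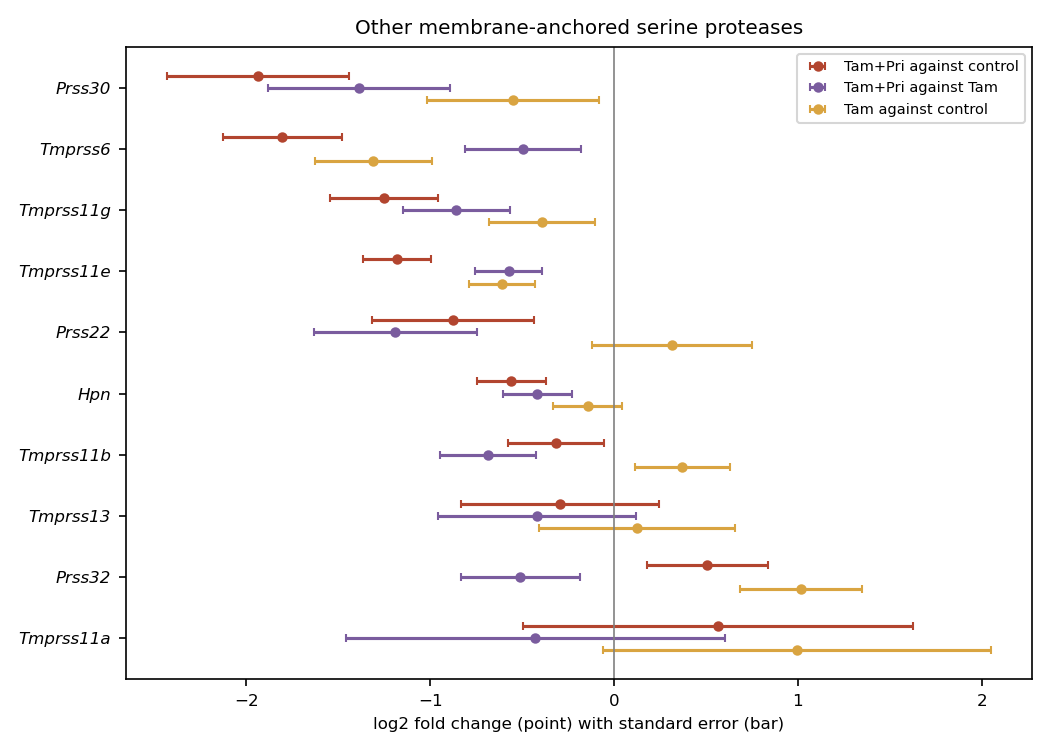
Log2 fold changes (points) with standard errors (bars) of the 10 other membrane-anchored serine proteases that could be tested, for each of the 3 comparisons of groups. All 10 lie below 0 for tamoxifen+primidone against tamoxifen, where none passed by edgeR, and Tmprss11e, Tmprss6 and Tmprss11g passed for tamoxifen+primidone against control.

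The wider inhibitor list, Kunitz domain proteins and serpins other than the members, moved in both directions. Of 22 tested, 3 rose in tamoxifen+primidone against control uteri and 2 fell, with a median of 0.15. Among all genes 2.14% passed higher and 3.21% lower there. Serpina1e, one of the mouse α1-antitrypsin genes, rose by 2.60 ± 0.29, Serpina1d of the same family by 1.92 ± 0.39 (a gene named after its values were seen), and Ambp, which encodes the Kunitz inhibitor bikunin, by 1.76 ± 0.33 (edgeR adjusted p = 0.00357, 0.0237 and 0.02). All 3 are genes of hepatocytes, and the Serpina1 copies are near-identical, so reads may be split among them. Serpinb8, an intracellular serpin of epithelium, fell by 0.85 ± 0.13 (edgeR adjusted p = 0.00984), and Serpinb5, known as maspin, by 1.13 ± 0.27 (named after its values were seen, edgeR adjusted p = 0.043). In tamoxifen against control uteri Serpina1e rose by 1.52 ± 0.28 (edgeR adjusted p = 0.0338), the 1 call by edgeR among the 22. There 7 of the 22 had an unadjusted p under 0.05 and DESeq2 called 3. In tamoxifen+primidone against control uteri the calls for Serpina1e and Serpinb8 held whichever library was left out. Those for Ambp and Serpina1d were lost without tamoxifen+primidone 2 or any 1 control, and that for Serpinb5 without 8 of the 9 libraries, all but control 2. The Serpina1e call with tamoxifen alone was lost without tamoxifen 1 or 3 or any 1 control.

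Among 27 tested partners of HGF and MET, 1 rose and 1 fell in tamoxifen+primidone against control uteri, and 0 passed by edgeR in the other comparisons. Over all genes 5.35% passed in tamoxifen+primidone against control uteri, so the count of this list is near that share. An unadjusted p under 0.05 was reached by 11 of them in tamoxifen against control uteri (5 called by DESeq2) and by 7 in tamoxifen+primidone against tamoxifen uteri (1 called by DESeq2). Plxnb1, a plexin that can pair with MET, had 29.9, 38.8 and 24.0 CPM in tamoxifen+primidone, 19.6, 23.6 and 16.8 CPM in tamoxifen and 13.9, 16.5 and 12.4 CPM in control uteri. Its 3 groups did not overlap, and Plxnb1 rose by 1.12 ± 0.19 in tamoxifen+primidone against control uteri (edgeR adjusted p = 0.0142). Itgb4, the integrin β4 subunit of hemidesmosomes and a known MET partner, fell by 0.71 ± 0.12 (edgeR adjusted p = 0.0137), with 113, 135 and 92.5 CPM in tamoxifen+primidone, 124, 121 and 131 CPM in tamoxifen and 183, 176 and 196 CPM in control uteri. Both calls were lost without control 1 or control 3. The median of the list was 0.07 in tamoxifen+primidone against control uteri and 0.21 in tamoxifen against control uteri.

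Of 17 tested substrates and targets of these proteases, 2 fell and 1 rose in tamoxifen+primidone against control uteri, with a median of −0.25. Among all genes 3.21% passed lower and 2.14% higher there. Dsg2, a desmosomal cadherin, fell by 0.48 ± 0.09 and Cldn4, a tight junction claudin, by 0.31 ± 0.08, while Plg, the plasminogen gene of liver, rose by 2.23 ± 0.40 (edgeR adjusted p = 0.0202, 0.0465 and 0.0167). The Cldn4 call was lost whichever library but tamoxifen replicate 3 was left out, the Dsg2 call without tamoxifen+primidone 2 or any 1 control, and the Plg call without any 1 control. Of 22 feedback and target genes of MET and ERK signalling, 1 rose and 1 fell in tamoxifen against control uteri. In tamoxifen+primidone against control uteri 1 of them fell. Over all genes 1.53% and 5.35% passed in these comparisons, and the second count is near its share. Phlda1 rose by 0.75 ± 0.15 and Spred2, an inhibitor of the ERK cascade, fell by 0.33 ± 0.07 with tamoxifen, and Spred2 fell by 0.32 ± 0.07 with tamoxifen and primidone (edgeR adjusted p = 0.0413, 0.0463 and 0.0308). These calls were lost without 5, 8 and 6 of the 9 libraries, in that order, each control among them.

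Some epithelium markers and some hormone-responsive genes also passed lower in the comparison where Spint1 and Tmprss2 fell. Of 20 uterine epithelium markers, 3 fell in tamoxifen+primidone against control uteri (Elf3, Esrp1 and Cldn4) and 0 rose, with a median of −0.30. Of the 20 markers 16 were negative, and 3.21% of all genes passed lower there. Cldn4 is also counted among the substrates above, and its call held in 2 of 9 other processing settings. Their summed FPKM was 2691 to 3096 in tamoxifen+primidone, 3490.3 to 3586 in tamoxifen and 3317 to 3582 in control uteri. Elf3, an epithelial ETS factor, fell by 0.59 ± 0.09 (edgeR adjusted p = 0.00923), and its call held whichever library was left out. Without tamoxifen+primidone 1 or 2, or any 1 control, 1 of these markers passed. Of 26 estrogen-responsive uterine genes, 5 fell in tamoxifen+primidone against control uteri (Ltf, Muc1, Padi1, Padi2 and Greb1, the last 2 named after their values were seen) and 0 rose. The list as a whole was mixed there, with 14 differences negative and 12 positive and a median of −0.07 (0.01 over all genes). Ltf, the lactoferrin gene, fell by 1.04 ± 0.18 (edgeR adjusted p = 0.0136), a call lost only without control 1. The calls for Muc1, Padi1, Padi2 and Greb1 were lost without 4, 5, 7 and 8 of the 9 libraries, in that order, control 1 among them. The summed FPKM of that list was 10336 to 17217 in tamoxifen+primidone, 23481 to 26484 in tamoxifen and 20811 to 22477 in control uteri. In both lists tamoxifen+primidone replicate 1 was the lowest library. With tamoxifen against control 0 epithelium markers passed by edgeR (8 had an unadjusted p under 0.05 and DESeq2 called 2), and 2 estrogen-responsive genes rose (Sprr2f and Slc5a8), calls lost without tamoxifen 1 or any 1 control. Set against tamoxifen uteri, tamoxifen+primidone uteri had 17 of 20 epithelium markers negative with a median of −0.35, and 20 of 26 estrogen-responsive genes negative with a median of −0.52 (0.02 over all genes). There 0 of either list passed by edgeR and DESeq2 called 6 of each, with an unadjusted p under 0.05 for 12 of each. DESeq2 called 11 estrogen-responsive genes in tamoxifen+primidone against control uteri. The part of epithelial content and of hormone state in the lower levels of Hgfac, Tmprss11d, Spint1 and Tmprss2 was not tested, and in whole uterus fewer cells of a type and less RNA per cell cannot be told apart.

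Every tamoxifen+primidone library had a higher summed FPKM of liver markers than the 6 others. The margin was small, with 197 in tamoxifen+primidone replicate 3 and 193 in tamoxifen replicate 3. Hgfac is itself known for high expression in liver. The source of the liver marker RNA, and any relation of it to the Hgfac level, was not tested. Of 20 liver markers 13 rose in tamoxifen+primidone against control uteri (2.14% of all genes did) and 3 in tamoxifen against control uteri (0.573%). Alb, Apoa1 and Ahsg rose in both. The median was 1.84 and 1.10 in these comparisons and 0.77 in tamoxifen+primidone against tamoxifen uteri. Their summed FPKM was 197 to 242 in tamoxifen+primidone, 84.0 to 193 in tamoxifen (highest in replicate 3) and 53.4 to 72.1 in control uteri. The calls with tamoxifen were lost without any 1 control, and those for Apoa1 and Ahsg also without tamoxifen 1 or 3. No liver marker was at 0 throughout a group. The count of liver markers that rose dropped to 3 without control 1, and was 5 and 4 without control 2 and control 3, and 8 and 7 without tamoxifen+primidone 1 and 2.

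**Figure D5:**
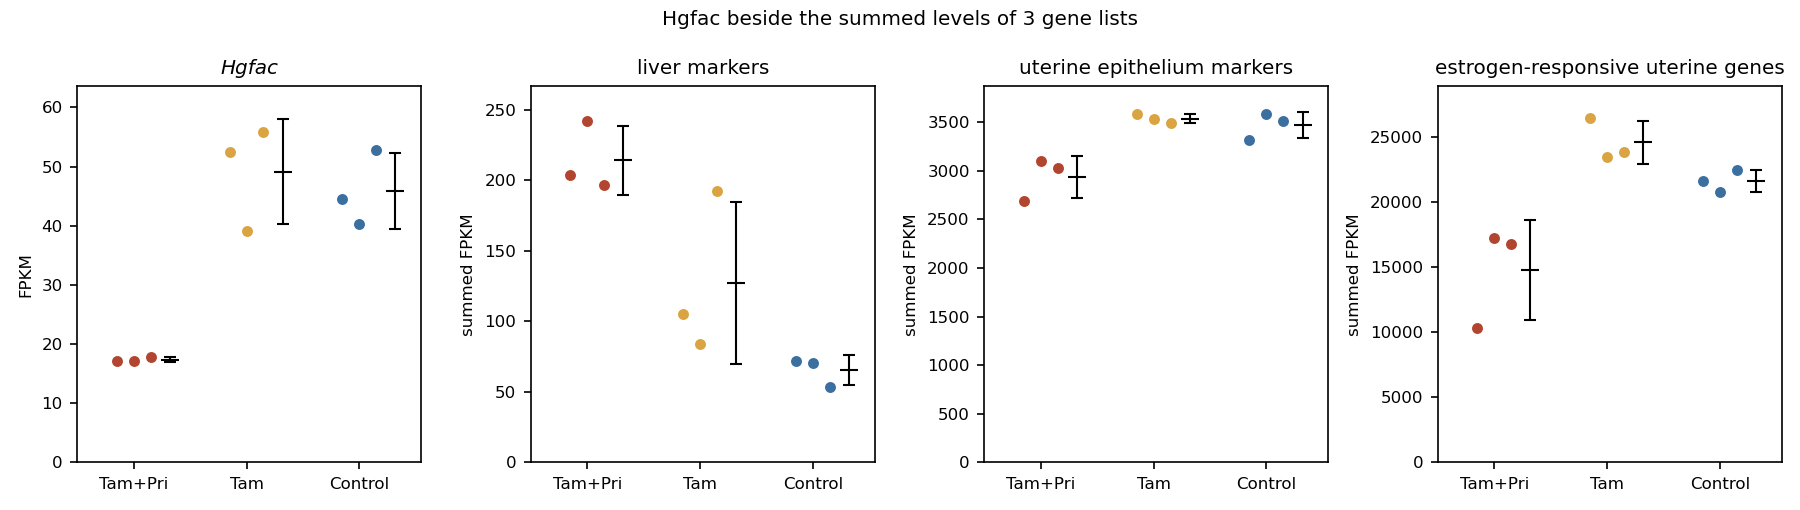
Hgfac (FPKM) beside the summed FPKM of liver markers, uterine epithelium markers and estrogen-responsive uterine genes in each library (points; vertical axes linear, from 0), with the mean ± SD of 3 libraries per group, tamoxifen+primidone at the left, then tamoxifen and control. Liver markers are highest and the other panels lowest in tamoxifen+primidone uteri, where Hgfac lies at 17.1 to 17.8 FPKM.

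Across the 9 libraries, likeness to a gene was measured as the root mean square difference of log2 CPM (prior count 2), each gene centred on its own mean, over 12889 genes with a mean of at least 2 CPM. The genes most like Hgfac were Nmur2 (0.24), Papln (0.26), Zbtb8b (0.26), Dio3 (0.30) and Gm7932 (0.30). Nmur2, a receptor for neuromedin U, had 5.04, 4.86 and 5.99 CPM in tamoxifen+primidone, 13.6, 8.33 and 14 CPM in tamoxifen and 17.4, 12.1 and 15.6 CPM in control uteri. Since these genes were picked for their likeness over the same libraries, their values are a description. The genes most like Tmprss11d were Slc16a14 (0.27), Pla2g2e (0.31), Pigr (0.31), Qsox1 (0.32) and Itga2 (0.33). Slc16a14, a member of the monocarboxylate transporter family, had 31.2, 58.8 and 41.6 CPM in tamoxifen+primidone, 122, 79.8 and 117 CPM in tamoxifen and 62.4, 68.2 and 75.3 CPM in control uteri. Pigr, which carries immunoglobulin across epithelium, had 1096, 1936 and 1452 CPM in tamoxifen+primidone, 3037 to 3291 CPM in tamoxifen and 1571 to 1653 CPM in control uteri.

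Library totals were 36393120 to 39958443 counts, and the members ranged from 194 counts (Hgf) to 22818 counts (Spint2) in a library. Smooth muscle markers, of which 2 of 12 passed lower in tamoxifen+primidone against control uteri, had medians of −0.59 in that comparison and −0.60 in tamoxifen against control uteri. None of the markers of epithelium, stroma or smooth muscle was at 0 throughout a group. The uterus label was checked on these.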

How the data were processed

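Raw read counts (whole numbers) of 18094 genes were deposited by the authors, with FPKM values scaled by the authors for depth and length. Lengths computed from both were whole within 0.01 for 99.97% of genes. The submitters' processing notes name HISAT2, HTSeq, DESeq2, R 3.2.0 and build GRCm39. Annotation and strand setting were not given in the sources used here.

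Counts went into edgeR 4.0.16 in R 4.3.3 (quasi-likelihood F test, TMM, default low-count filter by group, robust dispersions), with all 9 libraries in 1 fit and 15186 genes tested. Two-sided p-values were adjusted over all of them by the Benjamini-Hochberg method, with 0.05 as the threshold. The standard error is the absolute log2 fold change over the square root of the F statistic. On simulated data the fit recovered 68% of 2-fold and 83% of 4-fold changes for tamoxifen+primidone against control. The shares were 69% and 83% for tamoxifen against control, and 75% and 88% for tamoxifen+primidone against tamoxifen. Of the calls, 5.59% to 6.21% were false. Changes under 2-fold, such as that of Spint1, were not simulated. Replicates differed beyond counting noise (chi-square per degree of freedom 19.6 to 78.5), and all 9 libraries were kept.

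The members, lists and tests were chosen with earlier results of these data known. Named genes are the 10 members and the 5 most like Hgfac and Tmprss11d. Each list adds up to 3 that passed with the smallest p in each comparison, or the 2 with highest FPKM where none did. Named outside this rule were Hpn, the genes next to the threshold (Ces2b, Ccnd2 and Rasd1) and those marked as named after their values were seen. Alternatives were other scalings, no filter, DESeq2 1.42.0, limma 3.58.1 on counts and on log2(FPKM + 1 or 0.1), the libraries compared alone, a replicate block and leaving out each library. Reference coordinates (GRCm38.p6) are used for promoters only.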

Additional observations from a re-analysis of the deposited data

How the results depend on the processing

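Spint1 fell with an adjusted p under 0.05 in tamoxifen+primidone against control uteri in all 9 other settings and without each library (adjusted p 0.00941 to 0.0457 without 1 library). The number of members added for function that passed in that comparison was 3 with DESeq2 and 1 with limma on log2(FPKM + 1), on log2(FPKM + 0.1) and with the 6 libraries alone, where Tmprss2 was lost, and 1 to 2 without 1 library. DESeq2 called 5 other membrane proteases, 7 partners of HGF and MET, and 8 epithelium markers in that comparison. It also called more genes of all kinds there, 894 higher and 988 lower, against 325 and 487 by edgeR. Of the members added for function, 0 passed in tamoxifen against control uteri in every setting. There Met turned to −0.0029 with limma-voom, and without 1 library Met ran from −0.11 to 0.13, Spint2 from −0.042 to 0.097, and Hgfac from −0.0082 to 0.25. Hgfac and Tmprss11d kept their direction against tamoxifen throughout, at −1.72 to −1.47 and −1.90 to −1.51 without 1 library. That comparison chose these 2 genes, so their kept direction is a description and not separate evidence. Tmprss11d did not pass there with limma on FPKM or with the 6 libraries alone.

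Counts over all genes moved more, and the cause was not tested. In tamoxifen against control uteri DESeq2 called 523 higher and 589 lower, limma-voom 50 higher, and the 6 libraries alone 226 and 320, with 9 to 168 higher and 13 to 271 lower without 1 library. In tamoxifen+primidone against control uteri DESeq2 called 894 and 988, limma 653 higher on log2(FPKM + 1) and 650.0 higher and 316 lower on log2(FPKM + 0.1), with 41 to 316 and 81 to 484 without 1 library. In tamoxifen+primidone against tamoxifen uteri the counts were 2 higher and 7 lower with DESeq2 size factors, 1 higher with upper-quartile factors, 3 and 18 with no filter, 211 and 367 with DESeq2, 1 lower with limma on either FPKM scale, and 0 to 62 and 0 to 23 without 1 library. The ratio of Spint1 to St14 differed from controls by −0.52 to −0.27 in tamoxifen and −0.51 to −0.28 in tamoxifen+primidone uteri without 1 library. For Spint1 and Spint2 over the 5 proteases the differences were −0.20 to −0.057 and −0.16 to 0.019.

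Replicate numbers are not stated to pair mice, and same-numbered libraries did not deviate together in every pair (r from −0.134 to 0.177 over 9 pairs). Differently numbered libraries of other groups had r from −0.291 to 0.158 over 18 pairs, and 5 of 9 libraries correlated best with their own number. With the number as a replicate block, 2 members passed in tamoxifen+primidone against control uteri and 0 in tamoxifen against control uteri. In tamoxifen+primidone against tamoxifen uteri the block gave 5 genes higher and 48 lower, against 0 and 2 in the main fit. Whether a shared replicate effect underlies this was not tested.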

Other observations

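Genes of other cell type lists also passed. Among all genes 5.35% passed in tamoxifen+primidone against control uteri and 1.53% in tamoxifen against control uteri. Of 7 endometrial gland markers tested, Ttr rose by 1.91 ± 0.33 and Sox9 and Aldh1a1 fell by 0.74 ± 0.15 and 1.20 ± 0.29 in tamoxifen+primidone against control uteri (edgeR adjusted p = 0.0137, 0.0226 and 0.0485), and Ttr, a gene also strong in liver, rose by 1.65 ± 0.33 in tamoxifen against control uteri (edgeR adjusted p = 0.0411). Of 12 stratified squamous epithelium markers, Krt6b alone passed, higher by 3.55 ± 0.60 in tamoxifen against control uteri (edgeR adjusted p = 0.0266), at 7.09 to 8.46 CPM in tamoxifen and 0.216 to 1.10 CPM in control uteri. It had 0.698 to 2.92 CPM in tamoxifen+primidone uteri. Of 12 stroma markers Hand2, a progesterone-dependent stromal factor, rose by 0.70 ± 0.10 in tamoxifen+primidone against control uteri (edgeR adjusted p = 0.00777). Actg2 and Myh11, genes of smooth muscle, fell by 1.18 ± 0.22 and 0.69 ± 0.16 in the same comparison (edgeR adjusted p = 0.0209 and 0.0357). Of 12 smooth muscle markers 11 were negative there (median −0.59, 8 called by DESeq2), and 12 were negative in tamoxifen against control uteri (median −0.60), where 0 passed by edgeR, 7 had an unadjusted p under 0.05 and DESeq2 called 7.

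Of 16 leukocyte markers Nkg7, a gene of cytotoxic lymphocytes, rose by 1.60 ± 0.26 and Cd68, of macrophages, fell by 0.59 ± 0.13 in tamoxifen+primidone against control uteri (edgeR adjusted p = 0.0108 and 0.0343). In that comparison 12 of the 16 were positive (median 0.42, 4 called by DESeq2). In tamoxifen against control uteri 13 were positive (median 0.62), with 0 passing by edgeR, 8 at an unadjusted p under 0.05 and 4 called by DESeq2. Of 8 oviduct and ciliated cell markers Tppp3 rose by 0.83 ± 0.19 in tamoxifen+primidone against control uteri (edgeR adjusted p = 0.0401), while 6 were negative and the median was −0.50. Their summed FPKM was 101 to 163 in tamoxifen+primidone, 168 to 228 in tamoxifen and 78.8 to 87.3 in control uteri. None of 10 endothelium markers passed in any comparison by edgeR or DESeq2, and 1 had an unadjusted p under 0.05 in tamoxifen+primidone against control uteri, with Pecam1 at −0.27 ± 0.11 and Egfl7 at 0.02 ± 0.14 in tamoxifen+primidone against control uteri. The call for Hand2 held whichever library was left out. Without control 1 all the others named here were lost. Of the 9 libraries left out in turn, the loss of 1 ended the call for Ttr in tamoxifen+primidone against control uteri, 2 that for Nkg7, 3 that for Sox9, 4 those for Actg2 and Myh11, 5 those for Cd68 and for Ttr with tamoxifen alone, and 6 those for Aldh1a1, Krt6b and Tppp3.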
